A study of Mus musculus with 9 samples.

Results

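The genes described here carry glucose from uptake to lactate. They comprise 31 members named from textbook biochemistry and found by symbol in a table of 56289 mouse genes: the transporters Slc2a1 and Slc2a3, the isozymes of each glycolytic step, the lactate dehydrogenases and lactate transporters, the PFK-2/FBPase-2 enzymes and the pyruvate dehydrogenase kinases. They were chosen with earlier results of these data known. Of the 31 members, 30 passed the filter for testing (above 0 FPKM, a level scaled by transcript length and by the fragments of the library, in at least 3 of 9 libraries), as did 25417 genes in all. Hk3, which was above 0 FPKM in 2 libraries, was not tested. Glycolysis splits a glucose molecule into pyruvate with a small gain of ATP, and lactate dehydrogenase regenerates the NAD+ that the pathway consumes. Phosphofructokinase is its main point of control and is stimulated by fructose 2,6-bisphosphate, which the PFK-2/FBPase-2 enzymes make and remove. Inflammatory activation of macrophages is known for raised glucose uptake and lactate release, and hypoxia-inducible factor 1 is known to drive many of these genes.

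The study asked how Wang Bi tablet (WBT), a preparation of many herbs used against rheumatoid arthritis, acts on cultures labelled RAW264.7, a mouse macrophage-like line from a leukaemia virus-induced tumour of BALB/c origin. Poly(A) RNA was sequenced from 3 groups of 3 libraries: untreated cultures (Con), cultures given recombinant human TNF-α at 20 ng/ml for 24 h (TNF-α), and cultures given the same TNF-α together with 1.0 µg/ml WBT for 24 h (TNF-α+WBT, written WBP in the sample labels). The authors call the libraries of a group biological replicates, and the sample labels do not say what was repeated. The p-values measure the spread between these libraries, part of which may be technical. The first comparison shows what TNF-α did, the second what WBT added to it, and the third sets the combined treatment against untreated cultures. The 1st and 3rd comparisons share the Con libraries, and the 2nd shares the TNF-α or the TNF-α+WBT libraries with the others.

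The labelled cell type was checked against marker genes. Of 18 macrophage genes, 1 was above 1 FPKM in all 9 libraries (Cd14, mean 5.25 FPKM), and 7 were listed at 0 in all of them: Spi1, Ptprc, Adgre1, Itgam, Cybb, Tyrobp and Ctss. Their summed level was 7.50, 6.14 and 6.67 FPKM in the Con libraries, 7.14, 8.21 and 7.84 in those with TNF-α, and 7.82, 8.89 and 7.24 in those with TNF-α+WBT. The 12 genes that every cell uses were all above 1 FPKM in all libraries. Among genes of other cell types, 13 of 18 fibroblast genes exceeded 1 FPKM throughout (the most abundant was S100a4, 1177 FPKM, with Lum listed at 0), as did 10 of 14 Schwann cell and neural crest genes, 2 of 7 neuron genes (Tubb3, 30.7 FPKM), 1 of 7 melanocyte genes (Mitf, 1.31 FPKM) and 0 of 7 in each of the endothelium, epithelium and skeletal muscle lists. The labelled cell type is therefore not taken as given, and the cells are called cultures here.

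Markers of other cell types also moved with TNF-α. Of the 13 tested genes of the Schwann cell and neural crest list, 5 fell past the adjusted threshold in TNF-α against Con (Ngfr, S100b, Cdh19, Erbb3 and Foxd3). In the same comparison 1 rose (Pou3f1). Of all tested genes 4.86% passed there, and 8.37% of those of mean 1 FPKM or more. The same shares stand beside the neuron and fibroblast genes named below for TNF-α against Con. Ngfr, S100b, Cdh19 and Erbb3 were higher in all TNF-α+WBT than in all TNF-α libraries, not past the adjusted threshold. Between these groups 11.0% of all tested genes did not overlap, in either direction, and 13.1% of those of mean 1 FPKM or more. The neuron genes summed to 59.4, 58.4 and 62.4 FPKM in the Con libraries, 18.9, 18.5 and 18.3 in those with TNF-α, and 21.6, 24.7 and 23.1 in those with TNF-α+WBT, with Tubb3 and Nefl lower and Rbfox3 and Stmn2 listed at 0 throughout. The fibroblast genes summed to 5623, 5826 and 5457 FPKM in the Con libraries, 5739.8, 5968 and 6029 in those with TNF-α, and 5832, 5771 and 5722 in those with TNF-α+WBT, with Col1a1 and Col1a2 higher and Pdgfrb and Postn lower in TNF-α against Con. In TNF-α+WBT against Con, 5 of 13 tested Schwann cell and neural crest genes passed the adjusted threshold (1 higher, 4 lower). So did 2 of 3 tested neuron genes and 2 of 17 tested fibroblast genes, all lower. The share there was 3.71% of all tested genes and 6.46% of those of mean 1 FPKM or more. These values accompany each change against Con below, with TNF-α or with TNF-α+WBT, and their part in the results was not tested. In bulk RNA of this kind, fewer cells of a type and less RNA per cell cannot be told apart.

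The files hold FPKM and no counts, so depth was estimated from the smallest steps of the values of 10703 genes with a single transcript. The estimates ran from 16840000 fragments (TNF-α+WBT library 3) to 26100000 fragments (Con library 1). They are approximate, since 51.5% to 55.6% of the low values came to nearly whole numbers of fragments (to within 0.1), against 20% by chance. Pkm rested on the most fragments in a library, about 48958 to 70658. Slc16a3 rested on about 9.03 to 36.9 fragments, Slc2a3 on at most 5.00 and Hk3 on at most 2.00, near the 3 fragments that a count of 0 allows. Depth limited what could be seen of these 3 members.

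As a group the members were abundant. FPKM is scaled by transcript length, so levels can be set side by side between genes: 10 members averaged above 100 FPKM, 27 exceeded 1 FPKM in all libraries, Pfkfb1 did so in some, and Slc2a3, Hk3 and Slc16a3 did so in none. Their summed level was 4809 ± 382 FPKM in Con, 5303 ± 322 under TNF-α and 5547 ± 397 under TNF-α+WBT (SD, n = 3), with each TNF-α+WBT library above each Con library, and it made up 1.02% to 1.38% of all FPKM in a library. Within the groups the libraries leaned together across genes. Among the 28 members of mean 1 FPKM or more, Con library 3 was the lowest of its group for 18 and Con library 2 the highest for 19. TNF-α+WBT library 1 was the lowest of its group for 17 and library 2 the highest for 16, while TNF-α library 2 was the highest for 14.

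**Figure D1:**
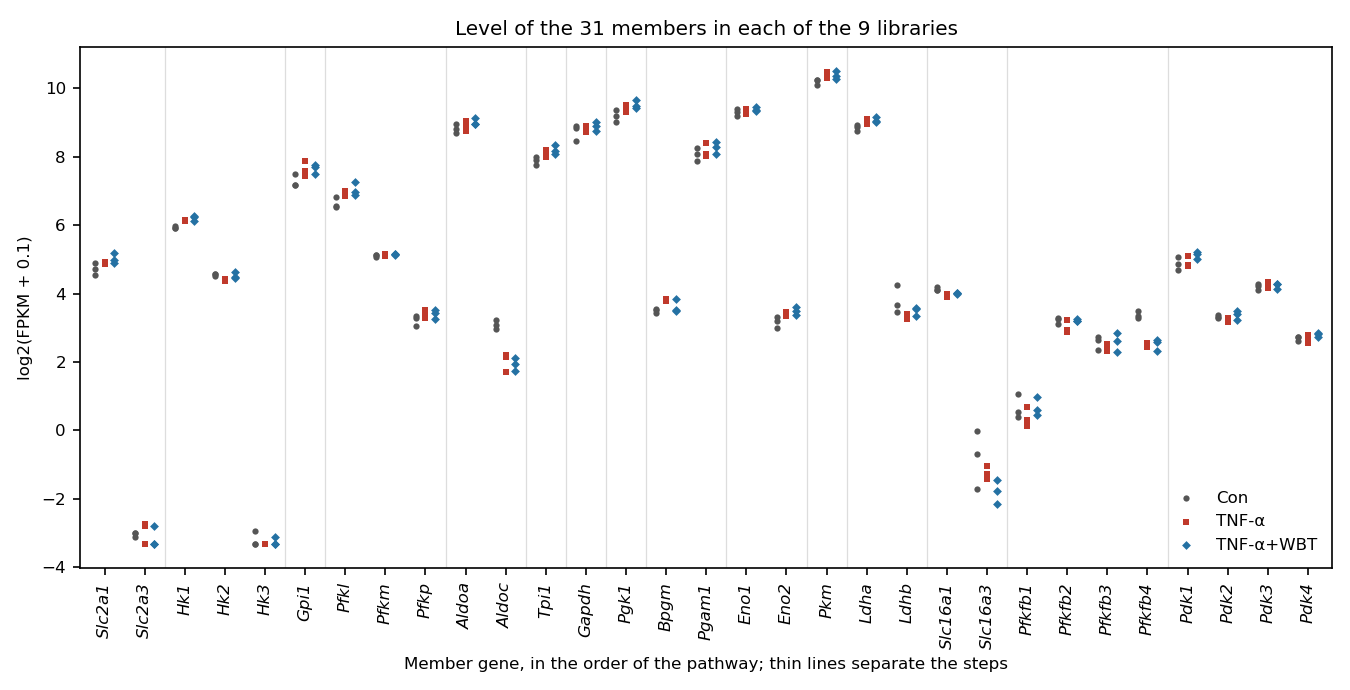
Level of each of the 31 members in each library, as log2(FPKM + 0.1) on the vertical axis, with genes along the horizontal axis in the order of the pathway; circles are Con, squares TNF-α and diamonds TNF-α+WBT (3 libraries each). The 3 groups lie close together for most members, while Aldoc and Pfkfb4 lie lower in all 6 treated libraries than in the 3 Con libraries.

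TNF-α against Con gave 4 changed members. Hexokinase 1 (Hk1) rose, while aldolase C (Aldoc), the lactate transporter Slc16a1 and the fructose 2,6-bisphosphate enzyme Pfkfb4 fell. The limma test on log2(FPKM + 0.1), with p-values adjusted over all tested genes by the Benjamini-Hochberg method and a threshold of 0.05, thus called 4 of 30 members, where 4.86% of all tested genes were called, and 8.37% of those of mean 1 FPKM or more. The count was 2, Aldoc and Pfkfb4, without Con library 1, 2 or 3, without TNF-α library 1, 2 or 3 and without TNF-α+WBT library 2, and it was 3 without TNF-α+WBT library 1. By direction, 1 member was higher (background 2.94%) and 3 were lower (background 1.93%). At an unadjusted p under 0.05, 12 members passed (background 16.1%), of which 7 were higher (background 8.63%) and 5 lower (background 7.45%). The rule of the study, a p below 0.05 (taken here as unadjusted) and more than a 2-fold difference, took 1 member, Aldoc (background 2.42%), and without TNF-α library 2 it took 0. The libraries of TNF-α and Con did not overlap for 12 members (background 21.2%). Of the 30 tested members 28 averaged 1 FPKM or more. Among all genes of that level 24.1% passed the unadjusted threshold (12.9% higher and 11.2% lower), 1.62% passed the rule of the study and 30.1% did not overlap. The median log2 fold change of the tested members was 0.06, beside 0.0028 over all tested genes, and it was 8.4e-05 without TNF-α library 2, 0.0058 without Con library 3, 0.0934 without Con library 1 and 0.026 under quantile scaling.

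Adding WBT to TNF-α changed no member past the threshold. With limma, 0 of 30 members were called in TNF-α+WBT against TNF-α, where 0.00393% of all tested genes, a single gene, was called. At an unadjusted p under 0.05 there was 1 member, Hk2 (background 6.31%), and the rule of the study took 0 (background 1.12%). The groups did not overlap for 2 members, Hk2 and Slc16a3 (background 11.0%). Among all genes of mean 1 FPKM or more the unadjusted share was 6.91%, the share past the rule of the study 0.102% and the share without overlap 13.1%. In the main fit, fold changes of the 28 members of mean 1 FPKM or more lay between -0.20 and 0.30 on the log2 scale (smallest adjusted p of a member 0.762). Their 95% interval lay within -0.5 to 0.5 for 25 and within -1 to 1 for 28. Under the 22 alternatives of setting or library they ranged from -0.31 (Bpgm) to 1.36 (Pfkfb4, protein-coding transcripts only), with 0 called. Protein-coding transcripts also gave 0.46 for Pfkfb3, 0.39 for Pfkfb2 and 0.38 for Pfkp. The median over the tested members was 0.09, beside -0.0020 over all tested genes, and it was 0.04 without TNF-α+WBT library 2 and 0.05 without TNF-α library 1. For scale, the single called gene was March8, a ubiquitin ligase gene outside the pathway. It had 11.8, 12.6 and 10.8 FPKM with TNF-α and 26.9, 25.6 and 28.9 FPKM with TNF-α+WBT, a log2 fold change of 1.20 (SE 0.09, adjusted p = 0.0131). March8 was chosen after its values were seen. Its call ended without Con library 2 (adjusted p = 0.0506), TNF-α library 1 (0.0663) or TNF-α+WBT library 1 (0.137) and with a replicate block, which fits the library number as a factor (0.198), and the range over all 22 alternatives was 0.00581 to 0.198.

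Against Con, the combined treatment gave 3 changed members, with Hk1 higher and Aldoc and Pfkfb4 lower. These were 3 of 30 tested (background 3.71%, and 6.46% among genes of mean 1 FPKM or more), 1 higher (background 2.31%) and 2 lower (background 1.40%). At an unadjusted p under 0.05, 14 members passed (background 14.7%), 10 of them higher (background 7.95%) and 4 lower (background 6.78%), and the rule of the study took Aldoc alone (background 2.29%). The latter count was 2 without Con library 2 and 2 without TNF-α+WBT library 2. The groups did not overlap for 14 members (background 19.5%). For genes of mean 1 FPKM or more these backgrounds were 21.6% at the unadjusted threshold (11.9% higher and 9.70% lower), 1.31% by the rule of the study and 27.0% without overlap. The median over the tested members was 0.11, beside -9.2e-05 over all tested genes, 0.17 without Con library 2, 0.16 without TNF-α+WBT library 1 and 0.19 when only protein-coding transcripts were summed.

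**Figure D2:**
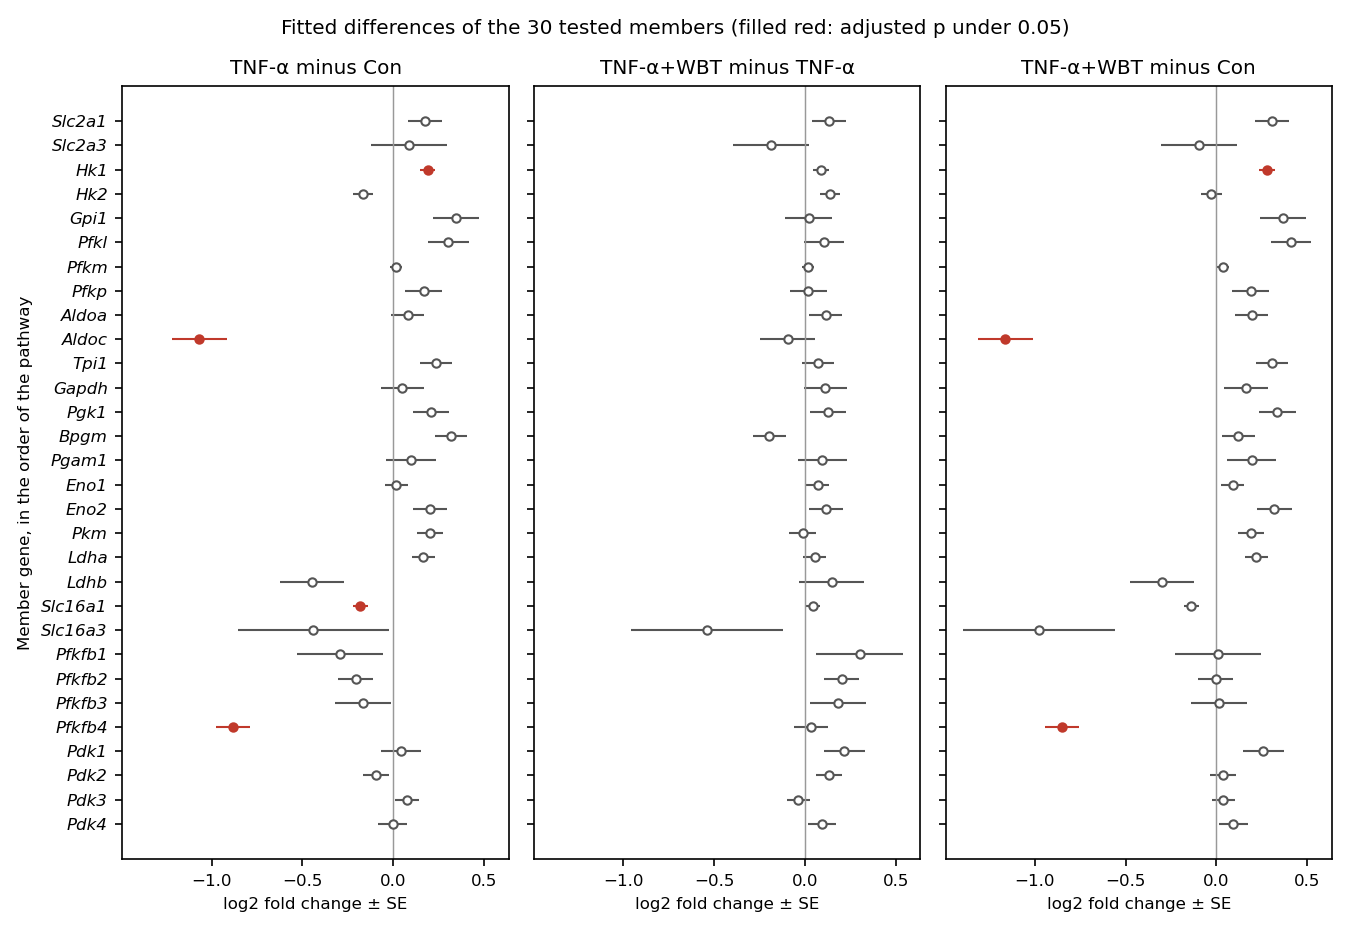
Log2 fold change of the 30 tested members in the 3 comparisons (horizontal axis, with the standard error as bars), with genes on the vertical axis in the order of the pathway; filled red points had an adjusted p under 0.05 (limma). Hk1, Aldoc, Slc16a1 and Pfkfb4 are filled for TNF-α minus Con, Hk1, Aldoc and Pfkfb4 for TNF-α+WBT minus Con, and 0 members for TNF-α+WBT minus TNF-α.

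Glucose enters through facilitative transporters, and of the 2 members among them Slc2a1, the widespread GLUT1, was by far the more abundant. Slc2a1 had 26.3, 29.4 and 23.4 FPKM in the Con libraries, 30.3, 28.9 and 29.8 in those with TNF-α, and 31.6, 36.4 and 29.9 in those with TNF-α+WBT. Every TNF-α+WBT library was above every Con library, while the TNF-α libraries overlapped with both. The log2 fold change was 0.31 (SE 0.09, adjusted p = 0.145) for TNF-α+WBT against Con and 0.17 (SE 0.09, adjusted p = 0.424) for TNF-α against Con, so neither passed the threshold. The latter was 0.092 without Con library 3. Slc2a3, the high-affinity GLUT3, did not exceed 0.0495 FPKM in any library, and Slc2a1 made up at least 99.8% of the summed FPKM of both.

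Hexokinases trap glucose as glucose 6-phosphate. Hk1 (ENSMUSG00000037012, chr10:62268855-62379908, minus strand of GRCm38) had 60.4, 62.5 and 60.5 FPKM in the Con libraries, 69.6, 70.3 and 69.3 in those with TNF-α, and 69.4, 75.7 and 77.3 in those with TNF-α+WBT. All 6 treated libraries were above the 3 Con libraries. Hk1 rose by 0.19 (SE 0.04, adjusted p = 0.0439) on the log2 scale with TNF-α and by 0.28 (SE 0.04, adjusted p = 0.00912) with TNF-α+WBT, each against Con, and the TNF-α+WBT against TNF-α value was 0.09 (SE 0.04, adjusted p = 0.816), or 0.13 and 0.057 without TNF-α+WBT library 1 or 3. The TNF-α call was near the threshold: its adjusted p was 0.126, 0.0774 and 0.135 without Con library 1, 2 or 3, 0.112, 0.129 and 0.114 without TNF-α library 1, 2 or 3, and 0.0627 without TNF-α+WBT library 2. It also ended in 6 of 13 changes of setting, among them TPM, median and quantile scaling (adjusted p 0.0517 to 0.213), and over all 22 alternatives the adjusted p ran from 0.0135 to 0.213. The TNF-α+WBT call ended when the variance did not follow the intensity (adjusted p = 0.0806), with a range of 0.00299 to 0.0806. Exons of the antisense gene Hk1os (mean 1.21 FPKM) overlap Hk1, and whether the authors counted by strand is not given in the sources used here.

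Hk2, the inducible hexokinase, had 22.8, 23.9 and 23.4 FPKM in the Con libraries, 20.6, 20.4 and 21.4 in those with TNF-α, and 22.3, 24.9 and 21.6 in those with TNF-α+WBT. The TNF-α libraries lay below those of both other groups, but the fold changes of -0.17 (SE 0.06, adjusted p = 0.169) against Con and 0.14 (SE 0.06, adjusted p = 0.762) for WBT added to TNF-α did not pass the threshold, and the latter was 0.079 without TNF-α+WBT library 2. Hk1 therefore took a larger part of the hexokinase FPKM in treated cultures, 72.3% ± 0.268 in Con, 77.0% ± 0.569 under TNF-α and 76.3% ± 1.55 under TNF-α+WBT (SD, n = 3). The shares of both treated groups lay above those of Con without overlap, and the exact two-sided permutation test gave p = 0.1 for each, the smallest value that 3 libraries against 3 allow. The 2 treated groups overlapped (exact p = 0.5).

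The next steps isomerise and phosphorylate the sugar. Gpi1, the glucose 6-phosphate isomerase, had 145, 179.6 and 144 FPKM in the Con libraries, 172, 233 and 193 in those with TNF-α, and 181, 207 and 216 in those with TNF-α+WBT. Pfkl, the liver-type subunit and the most abundant phosphofructokinase, had 94.6, 113 and 91.5 FPKM in the Con libraries, 116, 127 and 124 in those with TNF-α, and 117, 155 and 126 in those with TNF-α+WBT. Pfkl was higher in all treated than in all Con libraries, whereas Gpi1 overlapped between TNF-α and Con. Neither passed the adjusted threshold, with log2 fold changes in TNF-α+WBT against Con of 0.37 (SE 0.13, adjusted p = 0.21) for Gpi1 and 0.41 (SE 0.11, adjusted p = 0.0998) for Pfkl. With a replicate block, alone among the 22 alternatives, the latter passed (adjusted p = 0.0291, range over all 0.0291 to 0.352). For TNF-α against Con the values were 0.35 (SE 0.13, adjusted p = 0.214) and 0.30 (SE 0.11, adjusted p = 0.211), with Gpi1 at 0.23 without TNF-α library 2. Pfkm, the muscle-type subunit, ranged from 33.7 to 35.8 FPKM over the 9 libraries, and Pfkp, the platelet type, from 8.15 to 11.5 FPKM, with 31.4% to 50.6% of it in protein-coding transcripts. Pfkl accounted for 69.3% ± 1.84 in Con, 73.0% ± 0.452 under TNF-α and 74.1% ± 2.69 under TNF-α+WBT of phosphofructokinase FPKM (SD, n = 3), and both treated groups lay above Con (exact two-sided permutation p = 0.1 for each).

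Aldolases split fructose 1,6-bisphosphate. Aldoa, the muscle-type and widespread isozyme, had 450.3, 492 and 416 FPKM in the Con libraries, 429, 527 and 483 in those with TNF-α, and 494, 563 and 498 in those with TNF-α+WBT. It overlapped between TNF-α and Con and was higher in all TNF-α+WBT than in all Con libraries, at 0.20 (SE 0.09, adjusted p = 0.373) on the log2 scale, not past the threshold. Aldoc (ENSMUSG00000017390, chr11:78322968-78327781, plus strand), the isozyme best known from brain, had 8.42, 7.77 and 9.21 FPKM in the Con libraries, 4.36, 3.17 and 4.53 in those with TNF-α, and 3.26, 3.72 and 4.23 in those with TNF-α+WBT. All 6 treated libraries were below the 3 Con libraries, and the treated groups overlapped. Aldoc fell by 1.07 on the log2 scale with TNF-α (SE 0.15, adjusted p = 0.00428) and by 1.16 with TNF-α+WBT (SE 0.15, adjusted p = 0.00357), and TNF-α+WBT against TNF-α gave -0.09 (SE 0.15, adjusted p = 0.956). That last value was -0.028, -0.25 and -0.0015 without TNF-α library 1, 2 or 3, and -0.00096 and -0.19 without TNF-α+WBT library 1 or 3. Both calls held in the 22 alternatives tried (13 changes of setting and 9 removals of 1 library, adjusted p 0.00208 to 0.0259 and 0.00164 to 0.0223), and protein-coding transcripts alone had 7.57, 6.98 and 8.13 FPKM in Con, 3.85, 3.03 and 4.12 under TNF-α and 3.08, 3.31 and 3.72 under TNF-α+WBT. Aldoc was the minor isozyme, and its share of aldolase FPKM was 1.85% ± 0.306 in Con, 0.844% ± 0.217 under TNF-α and 0.718% ± 0.107 under TNF-α+WBT (SD, n = 3).

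Triose phosphates pass through Tpi1, Gapdh, Pgk1 and the mutases. Tpi1, the triose phosphate isomerase, had 239, 256 and 215 FPKM in the Con libraries, 256, 284 and 296 in those with TNF-α, and 271, 323 and 286 in those with TNF-α+WBT. All TNF-α+WBT libraries exceeded all Con libraries, with a log2 fold change of 0.31 (SE 0.09, adjusted p = 0.119), but the sum of protein-coding transcripts gave -0.33, and transcript Tpi1-205 held between 32.4% and 96.3% of the gene from library to library. Gapdh, a gene often used as a reference, had 473, 461 and 349.9 FPKM in the Con libraries, 422, 478 and 421 in those with TNF-α, and 431, 518 and 481 in those with TNF-α+WBT. It overlapped in each comparison, with 0.05 (SE 0.12, adjusted p = 0.904) for TNF-α against Con (or 0.13, 0.11 and -0.089 without Con library 1, 2 or 3, and 0.080, -0.010 and 0.082 without TNF-α library 1, 2 or 3) and 0.11 (SE 0.12, adjusted p = 0.917) for TNF-α+WBT against TNF-α, or 0.17, 0.18 and 0.050 without TNF-α library 2 and without TNF-α+WBT library 1 or 2. With protein-coding transcripts only, Gapdh gave 0.18 for TNF-α against Con. Its level is uncertain because 90 annotated copies match its transcripts at 95% identity or more, and they summed to 1029.7 FPKM on average, of which Gm13394 had 348.

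Pgk1, the first ATP-forming enzyme, had 584, 662 and 513 FPKM in the Con libraries, 637, 729 and 658 in those with TNF-α, and 689, 811 and 714 in those with TNF-α+WBT. The TNF-α+WBT libraries all lay above those of Con, and the log2 fold change of 0.34 (SE 0.10, adjusted p = 0.14) did not pass the threshold, except with a replicate block (adjusted p = 0.0389, range over all 22 alternatives 0.0389 to 0.452). With TNF-α alone the value was 0.21 (SE 0.10, adjusted p = 0.368), or 0.12 without Con library 3, and those libraries overlapped with Con. Pgam1, the main phosphoglycerate mutase, had 306, 270.5 and 235 FPKM in the Con libraries, 271, 340.2 and 259 in those with TNF-α, and 269, 314 and 345 in those with TNF-α+WBT. It overlapped in each comparison, with 0.10 (SE 0.14, adjusted p = 0.81) for TNF-α against Con, or 0.19 and 0.0019 without Con library 1 or 3, and -0.022 and 0.18 without TNF-α library 2 or 3. Bpgm, which makes 2,3-bisphosphoglycerate, was in contrast highest with TNF-α, at 11.5, 10.6 and 11.3 FPKM in the Con libraries, 14.2, 13.9 and 13.6 in those with TNF-α, and 11.4, 11.1 and 14.2 in those with TNF-α+WBT. TNF-α and Con did not overlap for Bpgm, yet 0.32 (SE 0.09, adjusted p = 0.101) did not pass the threshold. It did pass in 2 of the alternatives tried, without TNF-α+WBT library 3 (adjusted p = 0.0124) and with only the 2 groups compared (adjusted p = 0.0257), and the range over all 22 was 0.0124 to 0.29. For TNF-α+WBT against TNF-α, -0.20 (SE 0.09, adjusted p = 0.809) did not pass, and without TNF-α+WBT library 2 or 3 it was -0.13 or -0.31.

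Enolase makes phosphoenolpyruvate. Eno1, the widespread form, had 628, 680.2 and 586 FPKM in the Con libraries, 605, 671 and 639 in those with TNF-α, and 661, 704 and 647 in those with TNF-α+WBT. It overlapped in each comparison, at 0.02 (SE 0.06, adjusted p = 0.945) for TNF-α against Con and 0.09 (SE 0.06, adjusted p = 0.605) for TNF-α+WBT against Con, with a sign that quantile scaling turned in the former (-0.03). The latter was 0.14 and 0.037 without Con library 2 or 3, and 0.053 without TNF-α+WBT library 2, and 0.017 under quantile scaling. Its 4 near-identical copies summed to 613 FPKM on average, 47.7% to 49.7% of the sum of gene and copies, so its level is uncertain too. Eno2, known as the neuronal form, had 7.86, 9.91 and 9.07 FPKM in the Con libraries, 10.0, 9.96 and 10.8 in those with TNF-α, and 11.1, 12.1 and 10.3 in those with TNF-α+WBT. All treated libraries were above all Con libraries, but neither 0.20 (SE 0.09, adjusted p = 0.346) with TNF-α nor 0.32 (SE 0.09, adjusted p = 0.135) with TNF-α+WBT passed the threshold. The former was 0.11 without Con library 1, and 23.2% to 34.0% of its FPKM was in protein-coding transcripts.

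Pkm, the pyruvate kinase of most tissues, was the most abundant member, with 1220.0, 1205 and 1106 FPKM in the Con libraries, 1267, 1375 and 1422 in those with TNF-α, and 1243, 1466 and 1324 in those with TNF-α+WBT. All treated libraries were above all Con libraries, and the log2 fold changes of 0.20 (SE 0.07, adjusted p = 0.205) with TNF-α and 0.19 (SE 0.07, adjusted p = 0.267) with TNF-α+WBT did not pass the adjusted threshold, the latter at 0.13 without TNF-α+WBT library 2. Pkm is spliced with either of a pair of exons, giving the M1 enzyme of muscle and brain or the M2 enzyme of proliferating cells. Transcripts with the M2 exon had 845, 918 and 711 FPKM in the Con libraries, 824, 854 and 678 in those with TNF-α, and 924, 1133 and 850.3 in those with TNF-α+WBT. Transcripts with the M1 exon had 179.8, 95.7 and 197 FPKM in the Con libraries, 222, 268 and 536 in those with TNF-α, and 102, 129.5 and 236 in those with TNF-α+WBT. TNF-α library 3 was the highest in M1 and the lowest in M2. The M2 share of both was 83.8% ± 6.24 in Con, 70.2% ± 12.6 under TNF-α and 86.0% ± 6.69 under TNF-α+WBT (SD, n = 3), and the groups overlapped (exact two-sided permutation p = 0.2 for TNF-α against Con, 0.2 for TNF-α+WBT against TNF-α and 0.9 for TNF-α+WBT against Con).
The exons are shown because reads can be divided between them only where they differ. Both are whole coding exons of 167 bases on the plus strand of GRCm38 (GENCODE M21), the M1 exon of Pkm-202 at chr9:59675029-59675195 and the M2 exon of Pkm-201 at chr9:59675568-59675734. Capitals mark the 64 positions at which they differ, and 61.7% of positions are identical.
M1 exon: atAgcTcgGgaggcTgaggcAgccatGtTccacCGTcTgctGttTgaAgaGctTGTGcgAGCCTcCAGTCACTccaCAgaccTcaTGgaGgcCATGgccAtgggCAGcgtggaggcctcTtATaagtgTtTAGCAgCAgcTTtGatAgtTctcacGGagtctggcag
M2 exon: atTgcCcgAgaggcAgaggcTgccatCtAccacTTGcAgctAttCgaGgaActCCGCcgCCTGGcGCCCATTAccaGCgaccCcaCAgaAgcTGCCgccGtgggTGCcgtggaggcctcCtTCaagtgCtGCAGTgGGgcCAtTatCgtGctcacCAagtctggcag

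Lactate dehydrogenase converts pyruvate to lactate and back. Ldha, the muscle-type subunit, had 469, 488 and 433 FPKM in the Con libraries, 492, 547 and 521 in those with TNF-α, and 515, 576 and 529 in those with TNF-α+WBT. All treated libraries lay above all Con libraries, and the log2 fold changes of 0.17 (SE 0.06, adjusted p = 0.231) with TNF-α and 0.22 (SE 0.06, adjusted p = 0.122) with TNF-α+WBT did not pass the threshold. With quantile scaling alone among the 22 alternatives the latter passed (adjusted p = 0.04, range over all 0.04 to 0.363). Ldhb, the heart-type subunit, had 12.5, 18.9 and 10.9 FPKM in the Con libraries, 9.49, 10.1 and 10.5 in those with TNF-α, and 11.7, 11.6 and 10.0 in those with TNF-α+WBT. Con library 2 was far above the other libraries, the TNF-α libraries were all below Con, and -0.45 (SE 0.18, adjusted p = 0.256) did not pass the threshold and was -0.22 without that library. Ldhb formed 2.92% ± 0.702 in Con, 1.89% ± 0.0787 under TNF-α and 2.02% ± 0.188 under TNF-α+WBT of lactate dehydrogenase FPKM (SD, n = 3), with both treated groups below Con (exact two-sided permutation p = 0.1 for each). Ldhb shares sequence with the copy Gm5514, which held 6.70% to 11.0% of their sum, and is uncertain to that extent.

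Lactate leaves or enters cells through monocarboxylate transporters. Slc16a1 (ENSMUSG00000032902, chr3:104638668-104658462, plus strand), or MCT1, had 18.2, 17.2 and 17.2 FPKM in the Con libraries, 15.6, 15.8 and 14.9 in those with TNF-α, and 15.8, 16.0 and 16.0 in those with TNF-α+WBT. All 6 treated libraries were below the 3 Con libraries, by a small amount. Slc16a1 fell by 0.18 on the log2 scale with TNF-α (SE 0.04, adjusted p = 0.0478), while -0.14 (SE 0.04, adjusted p = 0.146) for TNF-α+WBT against Con did not pass. The TNF-α call ended whichever of the 9 libraries was left out, with adjusted p from 0.074 to 0.156, and it was kept in 7 of the 22 alternatives (range over all of them 0.0353 to 0.188). Slc16a3, the lactate exporter MCT4 of strongly glycolytic cells, ranged from 0.124 to 0.888 FPKM, and its lower level in all TNF-α+WBT than in all TNF-α libraries, at -0.54 (SE 0.42, adjusted p = 0.882), did not pass the threshold. Neither did -0.98 (SE 0.42, adjusted p = 0.323) for TNF-α+WBT against Con, where the groups overlapped. The former was -0.35 without TNF-α+WBT library 3, and the latter -0.58 without Con library 3. With a pseudocount of 1 they were -0.15 and -0.34.

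The PFK-2/FBPase-2 enzymes set the level of fructose 2,6-bisphosphate. Pfkfb4 (ENSMUSG00000025648, chr9:108991778-109032228, plus strand) had 9.97, 9.59 and 11.1 FPKM in the Con libraries, 5.42, 5.27 and 5.76 in those with TNF-α, and 4.94, 6.10 and 5.87 in those with TNF-α+WBT. All treated libraries were well below all Con libraries, and the treated groups overlapped. Pfkfb4 fell by 0.88 on the log2 scale with TNF-α (SE 0.09, adjusted p = 0.000946) and by 0.85 with TNF-α+WBT (SE 0.09, adjusted p = 0.00147), and TNF-α+WBT against TNF-α gave 0.03 (SE 0.09, adjusted p = 0.979). This small value was 0.0071 and 0.069 without TNF-α library 2 or 3, and 0.13, -0.024 and 0.0028 without TNF-α+WBT library 1, 2 or 3. The calls against Con rested on noncoding transcripts: protein-coding ones held 1.36% to 27.9% of the FPKM, and the leading transcript, Pfkfb4-206, is annotated as a retained intron. The protein-coding transcripts had 1.57, 1.15 and 1.11 FPKM in Con, 0.640, 0.0719 and 0.504 under TNF-α and 1.38, 0.765 and 0.910 under TNF-α+WBT. They gave -1.68 (adjusted p = 0.151) for TNF-α against Con and -0.32 (adjusted p = 0.856) for TNF-α+WBT against Con, which did not pass the threshold. For TNF-α+WBT against TNF-α they gave 1.36, far from the 0.03 of the whole gene and also not past the threshold. Each TNF-α+WBT library was above each TNF-α library in these transcripts. Over the other 21 alternatives both calls held, and over all 22 the adjusted p ran from 0.00044 to 0.151 and from 0.000697 to 0.856.

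By whole-gene FPKM, Pfkfb4 had the highest mean of the 4 genes in Con, and Pfkfb2, the heart-type enzyme, in both treated groups. In protein-coding transcripts Pfkfb2 was above Pfkfb4 in Con too, at 4.71, 5.26 and 4.61 FPKM beside 1.57, 1.15 and 1.11. Such transcripts held 46.0% to 65.1% of the Pfkfb2 FPKM. Pfkfb2 had 8.57, 9.47 and 9.58 FPKM in the Con libraries, 9.33, 7.47 and 7.23 in those with TNF-α, and 9.12, 9.03 and 9.36 in those with TNF-α+WBT. The groups overlapped in each comparison, at -0.21 (SE 0.10, adjusted p = 0.35) for TNF-α against Con and 0.20 (SE 0.10, adjusted p = 0.816) for TNF-α+WBT against TNF-α. Without TNF-α library 1 these values were -0.32 and 0.32. The latter was 0.13 without TNF-α library 3 and 0.39 with protein-coding transcripts only. Pfkfb3, the inducible enzyme whose kinase activity prevails, ranged from 4.78 to 7.03 FPKM and overlapped in each comparison, at -0.17 (SE 0.15, adjusted p = 0.69) for TNF-α against Con, or -0.28 and -0.087 without Con library 1 or 2. Its leading transcript is annotated as a retained intron, and protein-coding ones held 18.0% to 44.8% of its FPKM. Pfkfb1, the liver-type enzyme, ranged from 0.994 to 1.97 FPKM. Pfkfb4 made up 38.2% ± 2.95 in Con, 27.7% ± 2.61 under TNF-α and 25.3% ± 1.05 under TNF-α+WBT of the FPKM of these 4 genes (SD, n = 3), and both treated groups lay below Con (exact two-sided permutation p = 0.1 for each). These are shares of whole-gene FPKM, most of which was noncoding for Pfkfb4, so they are not shares of coding transcripts.

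**Figure D3:**
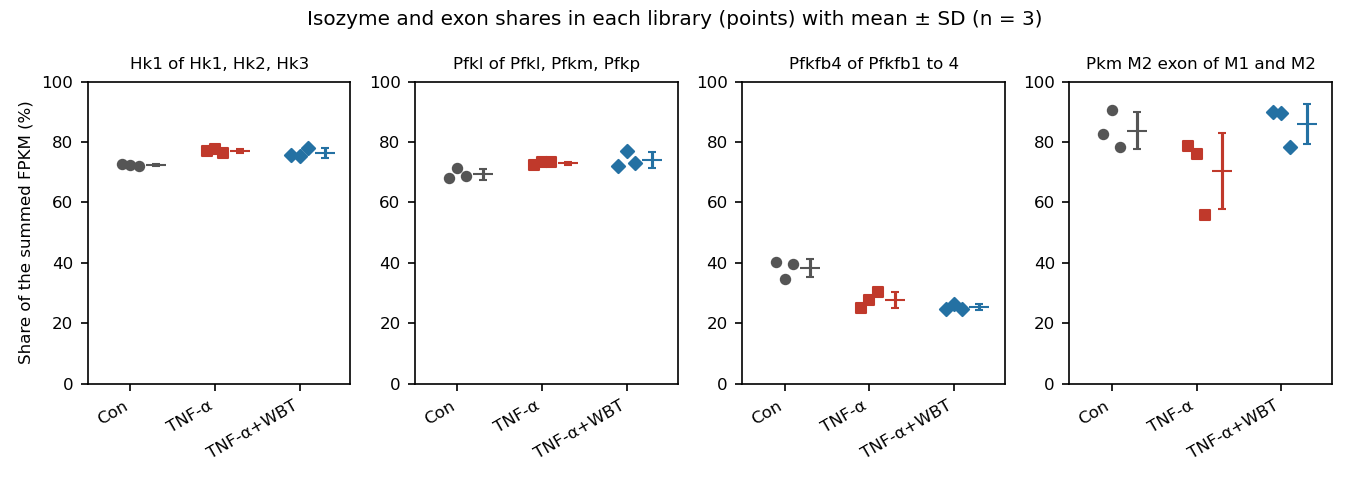
Share of the summed FPKM of a step (vertical axis, percent) held by Hk1, Pfkl and Pfkfb4, and the share of Pkm M2-exon transcripts among M1- and M2-exon transcripts, in each library (points) with the mean and SD of 3 libraries beside them. The Hk1 and Pfkl points of both treated groups lie above those of Con, the Pfkfb4 points below, and the M2-exon points overlap. The Pfkfb4 share is of whole-gene FPKM, most of which was noncoding for that gene.

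Pyruvate dehydrogenase kinases hold pyruvate back from the mitochondrial oxidation route. Pdk1, a known target of hypoxia-inducible factor 1, had 28.8, 33.5 and 25.5 FPKM in the Con libraries, 28.5, 27.7 and 34.0 in those with TNF-α, and 32.2, 35.4 and 37.1 in those with TNF-α+WBT. The groups overlapped in each comparison, and 0.26 (SE 0.11, adjusted p = 0.331) for TNF-α+WBT against Con and 0.22 (SE 0.11, adjusted p = 0.821) against TNF-α did not pass the threshold, the former at 0.16 without Con library 3. Protein-coding transcripts held 35.2% to 85.8% of the Pdk1 FPKM. Pdk2 ranged from 8.91 to 11.0 FPKM, Pdk3 from 17.2 to 20.2 FPKM and Pdk4 from 5.76 to 7.07 FPKM. None of these 3 kinases passed the unadjusted threshold in any of the 3 comparisons, and the closest was Pdk2 in TNF-α+WBT against TNF-α, at 0.13 (SE 0.07, adjusted p = 0.824), or 0.080 and 0.20 without TNF-α+WBT library 1 or 2.

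Beyond the members, 138 other genes of linked routes were listed, of which 128 were tested. With limma, 8 passed the adjusted threshold in TNF-α against Con (4 higher, 4 lower), near the background of 4.86% of all tested genes and 8.37% of those of mean 1 FPKM or more. For WBT added to TNF-α 0 passed (background 0.00393%), with 8 at an unadjusted p under 0.05 (backgrounds 6.31% and 6.91%). For TNF-α+WBT against Con 10 passed (6 higher, 4 lower), beside backgrounds of 3.71% and 6.46%. At an unadjusted p under 0.05, 32 of the 128 passed in TNF-α against Con (18 higher, 14 lower; backgrounds 16.1% of all tested genes and 24.1% of those of mean 1 FPKM or more) and 42 in TNF-α+WBT against Con (26 higher, 16 lower; 14.7% and 21.6%). The median log2 fold changes of the 128 were 0.01, 0.0094 and 0.03 for TNF-α against Con, TNF-α+WBT against TNF-α and TNF-α+WBT against Con. The called genes were spread over the routes, with 1 or 2 in a list. No gene passed in the pentose phosphate pathway (0 of 8 tested, with 2 at an unadjusted p under 0.05 in TNF-α against Con, 0 in TNF-α+WBT against TNF-α and 2 in TNF-α+WBT against Con, most abundant Tkt, 72.7 FPKM), in pyruvate entry and pyruvate dehydrogenase (0 of 10, with 3, 1 and 2 unadjusted in that order, Pdha1, 67.2 FPKM) or in the hexosamine and polyol branches (0 of 7, with 2, 0 and 3 unadjusted, Akr1b3, 128 FPKM) in any of the 3 comparisons. The backgrounds of these unadjusted counts are those given above for the 128 genes.

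Among the other glucose transporters, 1 of 6 tested rose, Slc2a6, a transporter of the lysosomal membrane. Slc2a6 had 1.96, 2.21 and 1.60 FPKM in the Con libraries, 7.53, 9.07 and 8.69 in those with TNF-α, and 6.92, 7.10 and 6.36 in those with TNF-α+WBT. All treated libraries were far above all Con libraries, at 2.08 (SE 0.12, adjusted p = 3.1e-05) on the log2 scale with TNF-α and 1.78 (SE 0.12, adjusted p = 0.000104) with TNF-α+WBT. The TNF-α+WBT libraries were all below the TNF-α libraries, but -0.30 (SE 0.12, adjusted p = 0.766) did not pass the threshold. When only protein-coding transcripts were summed, the calls ended, at 1.65 (adjusted p = 0.0615) and 0.68 (adjusted p = 0.513). Over all 22 alternatives the adjusted p ran from 1.21e-05 to 0.0615 and from 3.93e-05 to 0.513.

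The other isozymes and partners include the chaperones that carry the lactate transporters to the cell surface. Of 14 tested, Emb (embigin) fell with TNF-α, at -0.34 (SE 0.07, adjusted p = 0.0329) on the log2 scale, and Bsg (basigin), the most abundant of the list at 483 FPKM, rose with TNF-α+WBT against Con, at 0.32 (SE 0.07, adjusted p = 0.0474). Bsg had 437, 459.9 and 399 FPKM in the Con libraries, 460.0, 499 and 476 in those with TNF-α, and 568, 556 and 491 in those with TNF-α+WBT, so all treated libraries were above those of Con. The Emb call ended without any 1 of the Con libraries, TNF-α library 3 or any TNF-α+WBT library (adjusted p 0.0535 to 0.106) and in 4 of 13 changes of setting (range over all 22 alternatives 0.0188 to 0.112). The Bsg call ended without Con library 1 or 3, any TNF-α library, or TNF-α+WBT library 1 or 2 (adjusted p 0.0669 to 0.147) and in 6 of 13 changes of setting (range over all 22 alternatives 0.017 to 0.178).

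In gluconeogenesis, 1 of 6 tested genes rose, Pcx, the pyruvate carboxylase, with 8.98, 8.21 and 9.15 FPKM in the Con libraries, 12.1, 12.2 and 12.0 in those with TNF-α, and 10.6, 11.1 and 10.5 in those with TNF-α+WBT. The values were 0.46 (SE 0.05, adjusted p = 0.00177) for TNF-α and 0.28 (SE 0.05, adjusted p = 0.0255) for TNF-α+WBT against Con, and the latter call ended without Con library 1 or 2 or any TNF-α+WBT library (adjusted p 0.0587 to 0.0938) and in 3 of 13 changes of setting (range over all 22 alternatives 0.0161 to 0.0938). The former held in all 22 (adjusted p 0.00103 to 0.0127). The most abundant gene of that list was Pck2 (17.4 FPKM), at 0.10 (SE 0.08, adjusted p = 0.606) with TNF-α. In glycogen metabolism, 1 of 9 tested genes fell, Ugp2, which makes UDP-glucose and was the most abundant of its list (48.7 FPKM). Ugp2 had 56.1, 53.1 and 58.8 FPKM in the Con libraries, 45.8, 44.5 and 47.0 in those with TNF-α, and 43.7, 45.0 and 44.4 in those with TNF-α+WBT. It was lower in all treated libraries, at -0.29 (SE 0.04, adjusted p = 0.0057) with TNF-α and -0.34 (SE 0.04, adjusted p = 0.00341) with TNF-α+WBT. The former call ended when the variance did not follow the intensity (adjusted p = 0.0589, range over all 22 alternatives 0.00343 to 0.0589), and the latter held in all 22 (0.00203 to 0.0399). In the serine and glycerol branches, 1 of 8 fell, the glycerol 3-phosphate dehydrogenase Gpd1, at -0.34 (SE 0.07, adjusted p = 0.02) and -0.30 (SE 0.07, adjusted p = 0.0426), while the most abundant, Phgdh (162 FPKM), gave -0.11 (SE 0.06, adjusted p = 0.459) with TNF-α. The Gpd1 calls ended without any 1 of the Con or TNF-α libraries in the former (adjusted p 0.0599 to 0.0747) and without any 1 of the libraries but TNF-α+WBT library 3 in the latter (adjusted p 0.0699 to 0.134). The former also ended in 1 of 13 changes of setting (range over all 22 alternatives 0.00879 to 0.0747), and the latter in 5 of 13 changes of setting (range over all 22 alternatives 0.0186 to 0.134).

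In the tricarboxylic acid cycle, 22 genes were tested. Sdhb, a subunit of succinate dehydrogenase, fell in both comparisons with Con, from 68.5, 64.1 and 66.6 FPKM in Con to 53.4, 57.1 and 54.3 under TNF-α and 55.9, 58.1 and 57.8 under TNF-α+WBT. Its log2 fold changes were -0.27 (SE 0.04, adjusted p = 0.0047) and -0.21 (SE 0.04, adjusted p = 0.0212), and the latter call ended without Con library 1 or 3 or any TNF-α+WBT library (adjusted p 0.0548 to 0.0774) and in 4 of 13 changes of setting (range over all 22 alternatives 0.0138 to 0.225). The former ended in 1 of 13 changes of setting (range over all 22 alternatives 0.00294 to 0.0631). Mdh2, the mitochondrial malate dehydrogenase and the most abundant of the list (147 FPKM), fell with TNF-α+WBT against Con, at -0.12 (SE 0.03, adjusted p = 0.0385), a call that ended whichever library was left out (adjusted p 0.0623 to 0.13) and in 3 of 13 changes of setting (range over all 22 alternatives 0.0159 to 0.365).

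Among 20 tested regulators of glycolytic genes, Trp53, the gene of the p53 protein and the most abundant of the list (119 FPKM), rose from 91.3, 89.6 and 89.0 FPKM in Con to 139, 134 and 132 under TNF-α and 129, 132 and 130.3 under TNF-α+WBT. The fold changes of 0.59 (SE 0.03, adjusted p = 1.38e-05) and 0.54 (SE 0.03, adjusted p = 3.53e-05) on the log2 scale passed in all 22 alternatives (adjusted p 6e-06 to 0.00145 and 1.6e-05 to 0.00273). Egln3, a prolyl hydroxylase that marks hypoxia-inducible factors for removal, rose with TNF-α+WBT against Con, at 0.41 (SE 0.08, adjusted p = 0.0335), a call that ended without Con library 1 or 3, any TNF-α library, or TNF-α+WBT library 1 or 2 (adjusted p 0.0579 to 0.0993) and in 3 of 13 changes of setting (range over all 22 alternatives 0.0147 to 0.138). Of 18 other known targets of hypoxia-inducible factor 1, 1 rose, Lox (lysyl oxidase), at 0.34 (SE 0.07, adjusted p = 0.0351) with TNF-α and 0.43 (SE 0.07, adjusted p = 0.0159) with TNF-α+WBT. The Lox calls ended without Con library 1 or 3, any TNF-α library or TNF-α+WBT library 1 in the former (adjusted p 0.0564 to 0.114) and without Con library 1 or 3 or TNF-α+WBT library 1 or 2 in the latter (adjusted p 0.0502 to 0.0584). The former also ended in 3 of 13 changes of setting (range over all 22 alternatives 0.0206 to 0.118), and the latter in 3 of 13 changes of setting (range over all 22 alternatives 0.00911 to 0.0661). At an unadjusted p under 0.05, 6 of the 18 targets passed in TNF-α against Con (5 higher, 1 lower, beside 24.1% of genes of mean 1 FPKM or more), 0 in TNF-α+WBT against TNF-α (beside 6.91%) and 10 in TNF-α+WBT against Con, all 10 higher (beside 21.6% in either direction and 11.9% higher). In the last of these comparisons 10 of the 18 did not overlap between the groups (beside 27.0%). Estimates above 0 numbered 17 of the 18 there (beside 6356 of 12684 genes of mean 1 FPKM or more). They numbered 16 in TNF-α+WBT against TNF-α (beside 6389) and 12 in TNF-α against Con (beside 6341). The 18 targets summed to 783, 883 and 729 FPKM in the Con libraries and 873, 893 and 846 in those with TNF-α. With TNF-α+WBT they summed to 920, 1026 and 884 FPKM. The genes share these libraries, so the counts are not of independent genes. The most abundant of these targets was P4ha1 (119.9 FPKM), at 0.11 (SE 0.06, adjusted p = 0.46) with TNF-α. The median over the list was 0.15 for TNF-α and 0.26 for TNF-α+WBT, each against Con, and 0.11 for TNF-α+WBT against TNF-α.

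The promoters of the members were described by sequence. The motif ACGTG, with CACGT on the other strand, is 1 form of the core of known hypoxia-inducible factor sites. The core is RCGTG, with R for A or G, and the other form, GCGTG, was not searched for. The E-box CACGTG holds both ACGTG and CACGT, so 1 such E-box counts as 2 overlapping matches. ACGTG was searched for, on either strand, in the 250 bases before the start of each promoter of the RefSeq table (GRCm38.p6), in which 30 of the 31 members had 49 promoters. It was present in 19 of these 49 (38.8%), from 15 members, and in 16.6% of all 32851 promoters. Among the 4 members called with TNF-α, the promoters of Hk1, Aldoc and Pfkfb4 did not hold ACGTG or CACGT in the window, and that of Slc16a1 did. GCGTG, the form not searched for, does occur in promoter windows of Hk1, Aldoc and Pfkfb4. The counts therefore do not show which promoters lack a core site. A match is a description of the sequence and was not tested for binding.
The upstream sequences of Slc16a1, which fell, and of the Ldha promoter with 5 matches, the most of any member promoter, are shown with the matches in capitals. The Slc16a1 sequence lies at chr3:104638414-104638663 on the plus strand, where no gene is annotated, and the Ldha sequence at chr7:46845554-46845803 on the plus strand, within the Ldha gene but outside its annotated exons, ahead of a second start.
Slc16a1 promoter: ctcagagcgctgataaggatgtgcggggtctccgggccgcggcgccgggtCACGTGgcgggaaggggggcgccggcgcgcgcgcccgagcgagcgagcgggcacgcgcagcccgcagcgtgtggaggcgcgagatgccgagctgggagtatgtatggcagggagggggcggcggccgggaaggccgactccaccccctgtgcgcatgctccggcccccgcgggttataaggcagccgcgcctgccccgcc
Ldha promoter: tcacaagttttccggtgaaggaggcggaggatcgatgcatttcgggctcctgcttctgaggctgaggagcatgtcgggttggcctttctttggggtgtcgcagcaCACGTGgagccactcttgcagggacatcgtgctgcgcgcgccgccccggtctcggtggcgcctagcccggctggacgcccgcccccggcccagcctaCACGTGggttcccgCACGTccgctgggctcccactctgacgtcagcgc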

How the data were processed

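The authors deposited FPKM per gene (56289) and per transcript for 9 poly(A) RNA libraries from 3 groups of 3 (Con, TNF-α and TNF-α+WBT). A workflow diagram of the authors, but not their methods text, names HISAT2, StringTie and Ballgown. The genome build and versions are not given in the sources used here. Gene identifiers were matched to GENCODE M21 on GRCm38, and 55230 (98.1%) were found.

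The test used limma 3.58.1 (R 4.3.3) on log2(FPKM + 0.1) for the 25417 genes that exceeded 0 FPKM in 3 or more libraries (a mean per group, eBayes with intensity trend, Benjamini-Hochberg). Shares were compared by exact two-sided permutation tests, which cannot go below 0.1. Copies were found with blastn 2.17.0 at 95% identity. The rest used Python 3.11.15 (matplotlib 3.10.9, scipy 1.17.1, numpy 2.4.6, pandas 2.3.3).

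The members and lists were chosen from general knowledge with earlier results of these data known. Genes named singly are the members, the called genes of a list and its most abundant gene. Alternatives changed the pseudocount, filter, variance trend, groups fitted, scaling, gene value, replicate block and libraries. Adding near-identical copies and summing protein-coding transcripts were chosen after seeing the data.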

Additional observations from a re-analysis of the deposited data

How the results depend on the processing

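Each comparison was rerun under 13 other settings and with each of the 9 libraries left out, 22 alternatives in all. Aldoc kept its direction and its call in TNF-α against Con and in TNF-α+WBT against Con under all 22, and Pfkfb4 under 21. In TNF-α+WBT against TNF-α, 0 members were called under any alternative. Of 90 pairs of member and comparison, 65 never changed sign and 25 did, the largest of them Tpi1 at 0.31. Slc2a3 had a value in 20 of the 22 alternatives and Slc16a3 in 21.

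The members called in TNF-α against Con went from 4 to 2 (Aldoc and Pfkfb4) with no intensity trend, with median centring and with a replicate block, and to 2 (Aldoc and Hk1) with protein-coding transcripts only. They were 3 with a pseudocount of 0.01, no filter on low values, TPM or quantile normalization, and ranged from 2 to 4 with 1 library left out. In TNF-α+WBT against Con the 3 members became 5 with the replicate block, which added Pfkl and Pgk1, and 4 with quantile normalization, which added Ldha. They were 2 with no intensity trend (Aldoc and Pfkfb4), 2 with protein-coding transcripts only (Aldoc and Hk1), and 3 whichever library was left out. The median of the members in that comparison went from 0.11 to 0.19 with protein-coding transcripts only. The members past the rule of the study in TNF-α against Con went from 1 to 0 with a pseudocount of 1 and to 2 with protein-coding transcripts only, and from 0 to 1 in TNF-α+WBT against TNF-α with the latter. In TNF-α+WBT against Con they went from 1 to 2 with a pseudocount of 0.01 and with TPM. The cause was not tested.

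Library numbers were checked as pairs. Correlations of deviations from group means were -0.05 to 0.10 for the same number and -0.12 to 0.12 for different numbers over 12684 genes. No shared deviation by number was seen. Weak correlations cannot show that libraries of the same number were handled apart, and the labels do not say. Of all tested genes, the called ones in TNF-α against Con went from 1236 to 823 without Con library 3 (823 to 1111 with 1 library left out), and in TNF-α+WBT against Con from 942 to 579 without Con library 3 (579 to 826). In TNF-α+WBT against TNF-α, 1 called gene became 11 with a pseudocount of 0.01, 10 with no filter on low values, 7 with no intensity trend, 2 with only the 2 groups compared, 2 with the sum of transcript values, 7 with protein-coding transcripts only and 0 with the replicate block, and 0 to 10 with 1 library left out.

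Some signs reversed. Leaving out 1 library gave, for TNF-α against Con, Slc2a3 -0.020 to 0.27, Pfkm -0.000313 to 0.036, Gapdh -0.089 to 0.13, Pgam1 -0.022 to 0.19, Eno1 -0.035 to 0.072, Pdk1 -0.052 to 0.14 and Pdk4 -0.049 to 0.068. For TNF-α+WBT against TNF-α it gave Gpi1 -0.081 to 0.14, Pfkl -0.012 to 0.19, Pfkm -0.000143 to 0.033, Pfkp -0.042 to 0.093, Pkm -0.077 to 0.042, Pfkfb4 -0.024 to 0.13 and Pdk3 -0.085 to 0.012. For TNF-α+WBT against Con it gave Hk2 -0.087 to 0.014, Pfkfb1 -0.14 to 0.20, Pfkfb2 -0.055 to 0.025, Pfkfb3 -0.11 to 0.16, Pdk2 -0.015 to 0.11 and Pdk3 -0.00116 to 0.086.

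With protein-coding transcripts only, Tpi1 became -0.13 in TNF-α against Con, -0.20 in TNF-α+WBT against TNF-α and -0.33 in TNF-α+WBT against Con. In TNF-α+WBT against TNF-α, Gpi1 became -0.036, Pkm 0.00125 and Pdk1 -0.15. Pfkfb1 became 0.034 in TNF-α against Con and Pfkfb2 0.12 in TNF-α+WBT against Con. Quantile normalization gave -2.08e-05 for Pfkm and -0.027 for Eno1 in TNF-α against Con, and -0.00365 for Pfkfb1 in TNF-α+WBT against Con. With near-identical copies added, Pfkfb2 became 0.000161 in TNF-α+WBT against Con. The cause was not tested.

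Depth, estimated at 16840000 to 26100000 fragments, limits Slc2a3, Hk3, Slc16a3 and the protein-coding part of Pfkfb4. There are 3 libraries per group. The authors call them biological replicates, and the labels do not say what was repeated. FPKM are shares of a library, so a change in total RNA was not measured. Transcript levels say nothing of enzyme activity, glucose uptake or lactate release, which were not measured in these files. A group with WBT alone was not sequenced, and the cell type of the cultures remains unsettled by the markers.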
